A study of Mus musculus with 20 samples.

Results

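The tau effect, meaning the log2 difference in hippocampal RNA between mice with and without the PS19 tau transgene, was set against itself in libraries with and without the label C3aR KO. The quantity is the interaction: the tau effect in the labelled libraries, PS19/C3aR KO minus C3aR KO, minus the tau effect in the others, PS19 minus WT. A negative value means that the tau effect was smaller, or more negative, with the label. All 20 libraries of the series entered it, 5 in each of 4 groups, and 16657 genes were tested. With edgeR's quasi-likelihood test and Benjamini-Hochberg adjustment, the tau effect of 2 genes differed with the label at an adjusted p below 0.05, which is 0.012% of the genes. These were C3ar1, which encodes the receptor named in the label, and Gbp2b, an interferon-induced guanylate-binding protein gene. Both had a lower tau effect with the label, and no gene passed with a higher one. For both genes, the group that stood apart by its mean was WT. How the lines were bred is not given in the labels, and the part of breeding in these calls was not tested. In CPM (counts scaled to library size), C3ar1 averaged 17 in PS19/C3aR KO, 16 in C3aR KO and 2.09 in WT libraries. The labelled libraries thus had more C3ar1 than WT, which goes against the name KO. Gbp2b had 0 to 3 counts in each WT library and averaged 2.45 CPM in C3aR KO. The lists of lysosomal, microglial and MHC class II genes had medians below 0, with no member past the adjusted threshold. With the Rn45s share in the fit, described below, no general or homeostatic microglial gene was lower at an unadjusted p below 0.05. In that fit 10 of 28 lysosomal genes and 5 of 28 genes of disease-associated microglia were. Of 9 MHC class II genes, at least 5 were in each of the 32 other settings tried.

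All mice were males of 9 months, labelled C57BL/6J, and polyadenylated RNA of the hippocampus was sequenced. PS19/C3aR KO libraries carry both the tau transgene and the C3aR KO label, C3aR KO libraries the label alone, PS19 libraries the transgene alone, and WT libraries neither. PS19 mice express human tau with a frontotemporal dementia mutation under the mouse prion protein promoter, which drives it mainly in neurons, on top of the mouse's own tau. C3aR KO names a loss of the C3a receptor, but the labels do not say which part of C3ar1 is removed or how the lines were bred. Nor do they say that every library came from its own animal. The p-values below rest on the scatter among these libraries, part of which may be technical.

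C3a is a peptide split from complement component C3 when the complement cascade is active. Its receptor C3aR is a G protein-coupled receptor that in the brain is found mainly on microglia, the resident macrophages, while astrocytes are the main brain source of C3. In mice with tau aggregates, microglia and astrocytes take on reactive states marked by complement, lysosomal, antigen-presentation and interferon-response genes. In bulk tissue, fewer cells of a type and less RNA per cell cannot be told apart, which holds for each cell type marker below.

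Gene counts came to 33885850 to 47828111 per library and 18869 to 19321 genes had a count. At this depth the median standard error (SE) of an interaction was 0.14 on the log2 scale, against 0.10 for a tau effect. Rn45s, the ribosomal RNA precursor, took a share of the gene counts that averaged 2.31% in PS19/C3aR KO, 1.92% in C3aR KO, 1.85% in PS19 and 3.59% in WT libraries. PS19 library 5 stood apart from its group: it was the lowest of the 5 PS19 libraries for C3ar1, Hexa, C1qb, Trem2 and Gfap, and its Rn45s share was 3.65%, against 0.873 to 1.77% in the other PS19 libraries. Values without that library and with the Rn45s share in the fit stand beside the groups of genes they move, and beyond them the part of either in the results was not tested.

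The 2 tau effects differed in how many genes passed. Between PS19/C3aR KO and C3aR KO libraries 1 gene passed (0.006%), Prnp, with 1617 genes at an unadjusted p below 0.05 (9.71%). Between PS19 and WT libraries 1803 genes passed (10.8%), 1250 higher (7.5%) and 553 lower (3.32%) in PS19. The count of 1 is not stable: it was 105 without PS19 library 5, 68 without PS19/C3aR KO library 2, 24 without PS19/C3aR KO library 5, 2 without PS19 library 1 or PS19/C3aR KO library 4, and 158 with DESeq2. The count of 1803 was 1190 without PS19 library 3, 1201 without WT library 4 and 431 with the Rn45s share in the fit.

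A count of calls on each side does not test the difference, which the interaction does gene by gene. At an unadjusted p below 0.05 it held 691 genes (4.15%), 484 with a lower (2.91%) and 207 with a higher (1.24%) tau effect under the label. Without PS19 library 5 these 691 became 1137, and with the Rn45s share in the fit 342. Across the 16657 genes, the 2 tau effects, which share no library, had a Pearson correlation of 0.631 and a Spearman correlation of 0.563. Genes are not independent replicates, so no test is attached. The interaction was below 0 in 8383 genes (50.3%), with a median of -0.000866 over all genes.

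**Figure D1:**
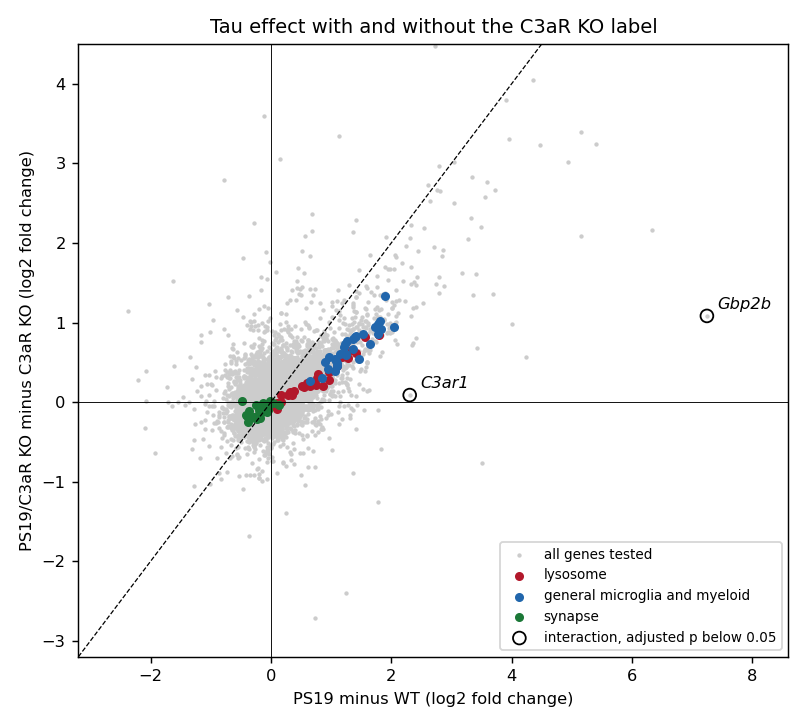
Tau effect of each of the 16657 genes tested, as a log2 fold change: PS19/C3aR KO minus C3aR KO on the vertical axis and PS19 minus WT on the horizontal axis. The dashed line marks equal tau effects, colours mark 3 gene lists, open circles mark C3ar1 and Gbp2b, and 2 genes lie outside the axes. The marked lysosomal and general microglial genes lie below the dashed line, all right of 0 on the horizontal axis but the lysosomal gene Neu1, at -0.03, and the synapse genes lie near the origin.

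C3ar1 lies at chr6:122847140-122856157 (GRCm38.p6, minus strand, RefSeq). Its values per library, in CPM (counts scaled to library size), were 18, 18.7, 15.8, 15 and 17.5 in PS19/C3aR KO and 15, 14.1, 16.6, 18 and 16.1 in C3aR KO. They were 11.5, 9.04, 12.3, 13.7 and 4.98 CPM in PS19 and 2.30, 1.88, 2.11, 1.73 and 2.42 CPM in WT. Both labelled groups overlapped each other and lay above every other library, PS19 lay between, and all 5 WT libraries lay below the 15 others, which was so for 21 of the 16657 genes (0.126%). The values therefore go against the name KO: the libraries labelled C3aR KO had higher, not lower, C3ar1 than WT. Since counts run over all exons of the gene and the labels do not give the deleted part, they cannot show whether a deleted stretch was present.

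The tau effect on C3ar1 was 0.09 (SE 0.17, adjusted p = 0.947) in the libraries labelled C3aR KO and 2.31 (SE 0.20, adjusted p = 2.64e-06) in the others. The interaction was -2.22 (SE 0.26, adjusted p = 0.00106). Read across the other factor, C3ar1 was 2.94 log2 units higher in C3aR KO than in WT libraries (SE 0.20, adjusted p = 9.51e-08), 1 of 10 genes that passed there (0.06%). The difference of 0.72 between PS19/C3aR KO and PS19 libraries (SE 0.18) had an adjusted p of 0.0814. Adding both single effects on the log2 scale would put PS19/C3aR KO at 79.0 CPM, against the 17 ± 1.58 CPM observed (SD, n = 5). The direction drawn here rests on the label that the gene's own counts go against.

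Over the 32 other settings tried, the C3ar1 interaction ranged between -2.40 and -1.98, with an adjusted p between 1.76e-12 and 0.0245. The other genes of the C3a axis did not pass. The interaction was -0.16 (SE 0.87) for C3, the precursor of the ligand, with tau effects of 2.65 with the label and 2.81 without it (adjusted p = 0.129 and 0.00578). It was -0.36 (SE 0.15) for Stat3, a transcription factor active in reactive glia, and -0.21 (SE 0.09) for Gnai2, a G protein subunit that couples to C3aR. For C3 the sign turned in 7 of the 20 fits that each left out 1 library, so no direction can be read.

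The 250 bases before the C3ar1 start are shown because the gene carries the lowest p of the contrast. Capitals mark TGACTCA, the letters of the AP-1 site, searched on both strands. It is present in 1466 of the 32851 RefSeq promoter windows of this length (4.46%), and the match is a description only. The window is chr6:122856158-122856407 (GRCm38.p6), written 5′ to 3′ along the minus strand.
C3ar1: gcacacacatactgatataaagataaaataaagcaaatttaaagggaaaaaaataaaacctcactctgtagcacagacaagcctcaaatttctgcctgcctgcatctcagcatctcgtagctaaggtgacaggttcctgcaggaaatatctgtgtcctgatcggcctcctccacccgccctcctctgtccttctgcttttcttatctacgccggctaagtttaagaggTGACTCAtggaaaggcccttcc

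Gbp2b, also called Gbp1 in mice, encodes a guanylate-binding protein that interferon-gamma strongly induces and that acts on membranes of intracellular pathogens. It lies at chr3:142594816-142619179. It had 8.75, 3.55, 6.10, 4.86 and 2.74 CPM in PS19/C3aR KO and 2.65, 2.55, 2.45, 2.23 and 2.38 CPM in C3aR KO libraries. It had 2.78, 5.29, 12, 4.88 and 2.18 CPM in PS19 and 0, 0.0731, 0.0297, 0 and 0.0520 CPM in WT libraries. All 5 PS19/C3aR KO libraries were above all 5 C3aR KO libraries, PS19 spread over both, and the WT libraries were at or close to 0 with no overlap with any other library.

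The summed Gbp2b counts were 1014 in PS19/C3aR KO, 493 in C3aR KO, 1058 in PS19 and 6 in WT, where an exact Poisson interval runs between 2.2 and 13.1. As a ratio to WT, corrected for library size, this was 157 (95% interval 71.7 to 428) for PS19/C3aR KO, 74.8 (34.1 to 205) for C3aR KO and 164 (75.2 to 449) for PS19. The intervals cover counting error only. The gene was thus read in all 15 libraries that carried the transgene, the label or both, at 2.18 to 12 CPM, and almost not at all in the 5 WT libraries. The labels do not say how the lines were bred, and the part of breeding in this gap was not tested.

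The tau effect on Gbp2b was 1.08 (SE 0.38, adjusted p = 0.303) with the label and 7.25 (SE 0.64, adjusted p = 3.36e-06) without it, and the interaction was -6.16 (SE 0.79, adjusted p = 0.00188). The size of the last 2 values depends on the prior count, because WT is near 0. C3aR KO libraries were 6.10 above WT (SE 0.66, adjusted p = 0.00014), while PS19/C3aR KO and PS19 libraries differed by -0.06 (SE 0.37, adjusted p = 0.955). The interaction passed in 31 of the 32 other settings. The exception was limma-voom, with an adjusted p of 0.0724.

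**Figure D2:**
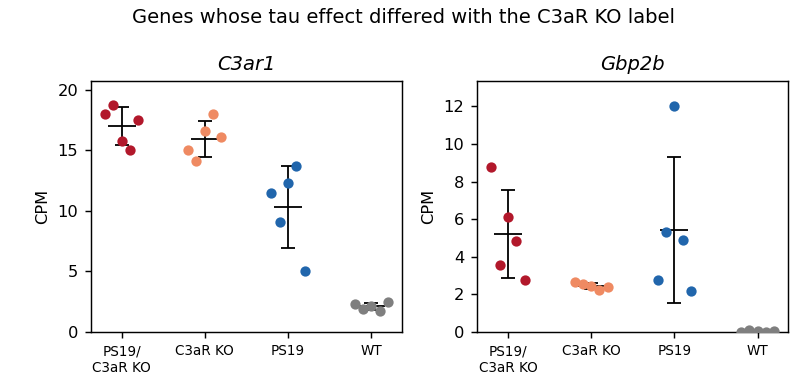
C3ar1 and Gbp2b in each of the 20 libraries, in CPM. Points are libraries, and bars give the mean and SD of 5 libraries per group. C3ar1 averaged 17 CPM in PS19/C3aR KO, 16 in C3aR KO, 10.3 in PS19 and 2.09 in WT. Gbp2b averaged 5.20, 2.45 and 5.43 CPM in PS19/C3aR KO, C3aR KO and PS19 libraries and 0.0309 CPM in WT.

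The other Gbp genes had no such gap in WT. Gbp2, the closest relative of Gbp2b, averaged 6.2 CPM in PS19/C3aR KO, 3.04 in C3aR KO, 9.57 in PS19 and 3.24 in WT, with an interaction of -0.54 (SE 0.37, unadjusted p = 0.163). Gbp3 had an interaction of -0.72 (SE 0.45), Gbp6 of -0.70 (SE 0.49), Gbp5 of -0.47 (SE 0.42) and Gbp7 of -0.43 (SE 0.32). Gbp4, at 0.24 (SE 0.44), Gbp9, at 0.05 (SE 0.29), and Gbp11, at 0.31 (SE 0.50), had values above 0. Of the 17 tested guanylate-binding and immunity-related GTPases, 14 had a value below 0, against 50.3% of all genes, and the median was -0.44. Gbp2b was the only one with an unadjusted p below 0.05, where 4 had one without PS19 library 5 and 3 without PS19/C3aR KO library 1. Reads that align equally well to Gbp2b and Gbp2 may have been set aside by the counting, so levels in this family are uncertain.

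The interferon-response list, which holds genes induced by type I interferon such as the Ifit and Oas families, gave no member at an unadjusted p below 0.05 among 27 with edgeR. DESeq2 and limma-voom called none of them at an adjusted p below 0.05. Its median interaction was -0.45 and 26 of 27 values were below 0, against 50.3% of all genes. Its median tau effects were 1.10 with the label and 1.54 without it. Ifit1, which binds foreign RNA, had an interaction of -0.42 (SE 0.76) and Ifit2 of -0.12 (SE 0.24), and both signs turned without PS19 library 2. In the fit without PS19/C3aR KO library 1, 9 of the 27 interferon genes were lower at an unadjusted p below 0.05, in that without PS19 library 5, 5 of 27, in that without PS19 library 1, 3 of 27, and in that without WT library 4, 1 of 27.

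The promoter window of Gbp2b is shown because its family shares a sequence feature. Capitals mark 2 copies of GAAA with any 2 bases between them, read on either strand, the core of the interferon-stimulated response element. They stand in 10 of the 11 genes of the guanylate-binding and immunity-related list that have a window, against 936 of all 27025 genes with one (3.46%) and 9 of 19 interferon-response genes with a window. The window is chr3:142594597-142594846 (GRCm38.p6, plus strand, RefSeq).
Gbp2b: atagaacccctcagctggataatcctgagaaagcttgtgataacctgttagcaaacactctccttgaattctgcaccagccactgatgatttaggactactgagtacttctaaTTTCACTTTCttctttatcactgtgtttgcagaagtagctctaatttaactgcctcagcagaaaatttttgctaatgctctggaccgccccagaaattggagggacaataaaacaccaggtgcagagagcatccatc

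The lysosomal list had a median below 0. Of 28 tested genes for hydrolases, cathepsins and membrane proteins of the lysosome, 22 had a lower tau effect with the label at an unadjusted p below 0.05, where 2.91% of all genes did. The interaction was below 0 in 28 of 28, against 50.3% of all genes, with a median of -0.43. The members' median tau effect was 0.22 with the label and 0.70 without it, where 23 of 28 rose in PS19 against WT. Of all genes, 7.5% rose there. No member passed the adjusted threshold with edgeR on all libraries. DESeq2 called C3ar1, Gbp2b and Man2b2 alone among all genes, and limma-voom C3ar1 alone. With the Rn45s share in the fit, 10 of 28 had an unadjusted p below 0.05 and the median was -0.37.

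Among the 20 genes with the lowest p of the whole contrast, Man2b2, Glmp, Hexa, Man2b1 and Dpp7 encode proteins of the lysosome, and Ftl1 encodes the ferritin light chain, which is broken down there. Their adjusted p was 0.578 for Man2b2 and 1 for the others, and all genes named from here on had an adjusted interaction p of 1. Man2b2, an alpha-mannosidase, had 45.7, 41.4, 45.7, 38.7 and 44.8 CPM in PS19/C3aR KO and 41.9, 38.6, 37.4, 42.7 and 39.1 CPM in C3aR KO libraries. It had 56.4, 52.6, 57.4, 55.1 and 45.7 CPM in PS19 and 38.1, 37.3, 37.7, 36.9 and 35.1 CPM in WT libraries. The PS19 libraries were the highest, 4 of them well apart and library 5 level with the top of PS19/C3aR KO, while the other 3 groups lay close together.

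The interaction of Man2b2 was -0.42 (SE 0.09, unadjusted p = 0.000104). Its tau effect was 0.12 (SE 0.06, adjusted p = 0.577) with the label, while it rose by 0.53 (SE 0.06, adjusted p = 9.13e-05) in PS19 against WT. It also fell in PS19/C3aR KO against PS19, by 0.31 (SE 0.06, adjusted p = 0.0375), 1 of 42 genes that passed there (0.252%). The interaction passed without PS19 library 5, at an adjusted p of 0.0153, and with DESeq2, at 0.0185.

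Hexa, the alpha subunit of the hexosaminidase that degrades GM2 ganglioside, had 62.7, 57.6, 73.6, 62.6 and 59.6 CPM in PS19/C3aR KO and 48.9, 58.0, 54.3, 53.9 and 56.2 CPM in C3aR KO libraries. It had 87.6, 80.7, 95.5, 93.0 and 60.3 CPM in PS19 and 49.3, 49.1, 47.8, 47.9 and 54.1 CPM in WT libraries. PS19 libraries 1 to 4 were above all others, and library 5 lay among the PS19/C3aR KO libraries. The interaction of Hexa was -0.53 (SE 0.13, unadjusted p = 0.000842), with tau effects of 0.22 (SE 0.09) with the label and 0.75 (SE 0.10) without it. Without PS19 library 5 it was -0.63, with an adjusted p of 0.00948.

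Ftl1 averaged 274 ± 20.1 CPM in PS19/C3aR KO, 261 ± 14.8 in C3aR KO, 330 ± 49.2 in PS19 and 231 ± 1.83 in WT libraries (SD, n = 5 each). Its interaction was -0.44 (SE 0.11), and all 5 WT libraries were below the 15 others. Without PS19 library 5 the interaction was -0.53, with an adjusted p of 0.00874. Man2b1, the lysosomal alpha-mannosidase whose loss causes alpha-mannosidosis, had an interaction of -0.67 (SE 0.17), and Glmp, a glycosylated lysosomal membrane protein, of -0.32 (SE 0.08). Dpp7, a dipeptidyl peptidase, stood at -0.29 (SE 0.08). All 5 of its WT libraries were below the 15 others, with 26.8 ± 1.29 CPM in PS19/C3aR KO, 27.6 ± 2.03 in C3aR KO, 26.7 ± 1.47 in PS19 and 22.6 ± 1.07 in WT (SD, n = 5 each).

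Of the list's best known members, Ctsd, the main aspartic protease of the lysosome, had 680, 436, 675, 428 and 484 CPM in PS19/C3aR KO and 403, 345, 326, 428 and 336 CPM in C3aR KO libraries. It had 987, 792, 854, 957 and 490 CPM in PS19 and 360, 306, 340, 347 and 332 CPM in WT libraries. Transgenic libraries were above the others within each label, and PS19/C3aR KO libraries 1 and 3, the highest of their group, were above PS19 library 5. The interaction of Ctsd was -0.72 (SE 0.23), with tau effects of 0.56 (SE 0.16, adjusted p = 0.21) with the label and 1.28 (SE 0.16, adjusted p = 0.000163) without it.

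Chosen after their values were seen, Grn, the precursor of the lysosomal granulins, had an interaction of -0.69 (SE 0.19), and Npc2, which carries cholesterol out of the lysosome, of -0.47 (SE 0.15). Lamp1, an abundant lysosomal membrane protein chosen for its promoter, had -0.24 (SE 0.09). At the other end of the list, Neu1, a sialidase, had -0.04 (SE 0.06), Laptm4a -0.08 (SE 0.09) and Psap, the saposin precursor, -0.11 (SE 0.06), each with an unadjusted p above 0.05. The values therefore differed by member. Their tau effects without the label differed too, at -0.03 for Neu1, 0.17 for Laptm4a and 0.10 for Psap.

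**Figure D3:**
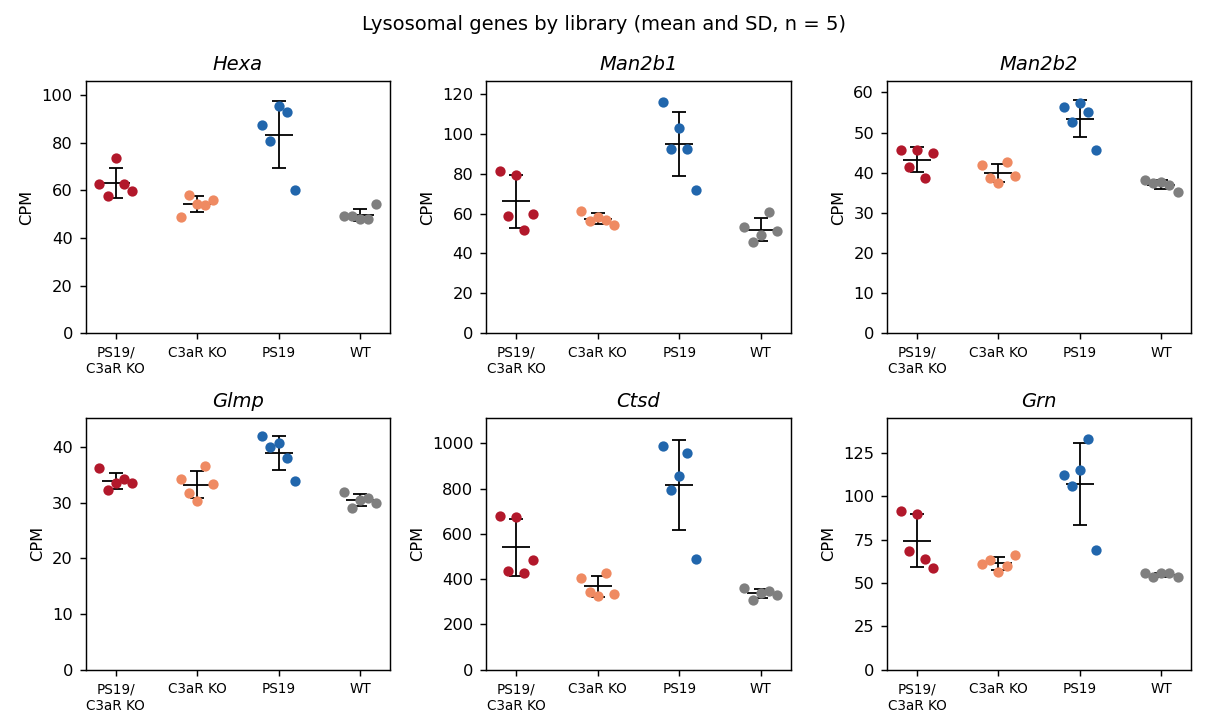
Lysosomal genes Hexa, Man2b1, Man2b2, Glmp, Ctsd and Grn in each of the 20 libraries, in CPM, with points for libraries and bars for the mean and SD of 5 libraries per group. PS19 libraries are the highest in each panel apart from library 5, the lowest of its group, which for Ctsd had 490 CPM against 792 to 987 CPM in the other 4 PS19 libraries.

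Promoter windows of Ctsd and Lamp1 are shown for the letters TCACGTG, the lysosomal E-box to which TFEB and related factors bind, here searched on both strands and set in capitals, overlapping matches included. The letters stand in 4 of the 23 lysosomal genes with a window (17.4%) and in 968 of all 27025 genes with one (3.58%). The AP-1 letters TGACTCA also stand in 4 of the 23 (17.4%), and in 1395 of all 27025 genes (5.16%). Ctsd holds 3 matches to TCACGTG, 2 of which overlap, and Lamp1 holds 4. A match is no measure of binding, and Tfeb itself had an interaction of -0.45 (SE 0.19). The windows are chr7:142387828-142388077 (minus strand) and chr8:13158911-13159160 (plus strand), GRCm38.p6, RefSeq.
Ctsd: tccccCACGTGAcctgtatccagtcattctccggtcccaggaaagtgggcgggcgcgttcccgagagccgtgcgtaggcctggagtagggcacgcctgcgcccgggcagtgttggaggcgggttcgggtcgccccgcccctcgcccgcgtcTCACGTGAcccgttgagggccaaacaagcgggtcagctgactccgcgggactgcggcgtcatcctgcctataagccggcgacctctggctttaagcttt
Lamp1: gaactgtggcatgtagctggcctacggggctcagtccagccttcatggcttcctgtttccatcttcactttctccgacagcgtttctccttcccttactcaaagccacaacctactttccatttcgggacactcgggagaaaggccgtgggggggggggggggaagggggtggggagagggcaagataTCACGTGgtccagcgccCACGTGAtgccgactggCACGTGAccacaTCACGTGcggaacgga

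The 3 lists of microglial genes had medians below 0. Of 30 general microglial and myeloid markers, 30 had an interaction below 0 and 18 an unadjusted p below 0.05, with a median of -0.59. The median tau effects were 0.67 with the label and 1.26 without it, where 30 of 30 rose in PS19 against WT. Over all genes tested, 50.3% had an interaction below 0 and 2.91% were lower at an unadjusted p below 0.05. In PS19 against WT, 10.8% of all genes were called. The count of 18 was 27 without PS19 library 5, but 7 without PS19 library 3, 9 without PS19 library 4, 9 without PS19/C3aR KO library 4, 10 without PS19/C3aR KO library 5, and 9 with limma-voom. With the Rn45s share in the fit it was 0 of 30, with a median of -0.41.

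Cd53, a tetraspanin of leukocytes, had an interaction of -0.71 (SE 0.24), with 8.46 ± 2.21 CPM in PS19/C3aR KO, 5.34 ± 0.392 in C3aR KO, 12.7 ± 2.95 in PS19 and 4.90 ± 0.645 in WT libraries (SD, n = 5 each). Aif1, the microglial marker Iba1, had -0.53 (SE 0.31, unadjusted p = 0.101). Of 16 homeostatic microglial genes, 15 were below 0, against 50.3% of all genes, with a median of -0.24. Among the 16, 5 had an unadjusted p below 0.05, where 2.91% of all genes were lower. Tmem119 had -0.45 (SE 0.21) and the purine receptor P2ry12 -0.17 (SE 0.17), and the sign of P2ry12 turned with the Rn45s share in the fit. The homeostatic count of 5 was 10 without PS19 library 5, 3 without C3aR KO library 5, PS19 library 3, PS19 library 4 or PS19/C3aR KO library 4, and 0 with the Rn45s share in the fit.

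Of 28 genes of disease-associated microglia, a state described in mouse models of amyloid and tau disease, 26 had an interaction below 0 and 14 an unadjusted p below 0.05. Their median was -0.79, with median tau effects of 0.80 with the label and 1.57 without it, where 22 of 28 were called. The shares of all genes were 50.3% below 0, 2.91% lower at an unadjusted p below 0.05 and 10.8% called. With the Rn45s share in the fit the 14 became 5 and the median -0.54, and without PS19 library 5 the 14 became 21. The exceptions in sign were Lpl, at 0.42 (SE 0.37), and Fabp5, at 0.10 (SE 0.10), both of lipid handling.

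Gpnmb, a glycoprotein of lipid-laden phagocytes and the list's member with the lowest p, had 7.64, 3.74, 6.99, 14.5 and 8.74 CPM in PS19/C3aR KO and 4.93, 4.38, 4.25, 5.01 and 5.39 CPM in C3aR KO libraries. It had 11, 15.4, 20.5, 16.6 and 7.16 CPM in PS19 and 3.62, 2.78, 2.99, 1.54 and 2.31 CPM in WT libraries. All 5 WT libraries were below the 15 others, and PS19/C3aR KO overlapped both C3aR KO and PS19. The interaction of Gpnmb was -1.62 (SE 0.42, unadjusted p = 0.00117), with tau effects of 0.80 (SE 0.30) with the label and 2.42 (SE 0.31) without it.

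Cst7, the cathepsin inhibitor cystatin F, and Clec7a, the beta-glucan receptor dectin-1, had the steepest tau effects of the named genes of this state. For Cst7 these were 3.25 (SE 0.59, adjusted p = 0.0724) with the label and 5.40 (SE 0.62, adjusted p = 9.13e-05) without it, an interaction of -2.16 (SE 0.89). For Clec7a they were 3.40 (SE 0.67, adjusted p = 0.0724) and 5.16 (SE 0.62, adjusted p = 0.000163), an interaction of -1.76 (SE 0.98). Both genes had few counts without the transgene, so the sizes of these effects are uncertain. Cst7 had 5 to 12 counts a library in C3aR KO and 4 to 9 in WT. Clec7a had 1 to 8 in C3aR KO and 7 to 11 in WT. Clec7a fell in PS19/C3aR KO against PS19, by 2.53 (SE 0.51, adjusted p = 0.0402), and so did Ccl6, a chemokine chosen after its values were seen, by 1.57 (SE 0.27, adjusted p = 0.0275). All 5 PS19 libraries of Ccl6 were above the 15 others, which held for 96 of all genes (0.576%). Also chosen after their values were seen, Trem2, a lipid-sensing receptor of microglia, had an interaction of -0.88 (SE 0.33) and its signalling adaptor Tyrobp of -1.01 (SE 0.35).

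Among 20 complement genes the lower values were held by the subunits of C1q, the molecule that starts the classical pathway. C1qb had 88.6, 50.4, 100 and 54.4 CPM in PS19/C3aR KO libraries 1 to 4 and 45.5 CPM in library 5, and 35.7, 37.3, 36.0, 39.7 and 37.5 CPM in C3aR KO libraries. It had 111, 121, 150, 141 and 59.1 CPM in PS19 and 23.9, 30.5, 31.3, 33.0 and 28.1 CPM in WT libraries. The groups stepped up without overlap between WT and C3aR KO and between C3aR KO and PS19/C3aR KO, and PS19/C3aR KO overlapped PS19 through PS19 library 5 alone.

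The interaction of C1qb was -1.12 (SE 0.31, unadjusted p = 0.0018), that of C1qa -1.13 (SE 0.36) and that of C1qc, named after its values were seen, -1.07 (SE 0.32). The fourth complement gene with an unadjusted p below 0.05 was Clu, an inhibitor of the terminal pathway, at -0.42 (SE 0.14). For C4b, a component downstream of C1q, the interaction was -0.84 (SE 0.44, unadjusted p = 0.0695), and reads shared with C4a make it uncertain. In all, 14 of the 20 were below 0 with a median of -0.14, and with the Rn45s share in the fit 2 of 20 had an unadjusted p below 0.05. Without it, 50.3% of all genes were below 0 and 2.91% were lower at an unadjusted p below 0.05.

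MHC class II genes, which present peptides to CD4+ T cells, had a median of -0.998, with 9 of 9 members below 0 and 6 at an unadjusted p below 0.05. Their median tau effect was 0.21 with the label and 1.24 without it, where 5 of 9 were called. Of all genes, 50.3% were below 0, 2.91% lower at an unadjusted p below 0.05 and 10.8% called in PS19 against WT. Cd74, the invariant chain, had 15.2, 5.35, 9.66, 9.50 and 8.45 CPM in PS19/C3aR KO and 6.83, 4.92, 5.62, 4.51 and 9.25 CPM in C3aR KO libraries. It had 17, 28.1, 18, 32.2 and 21.7 CPM in PS19 and 5.70, 6.19, 8.93, 5.18 and 6.44 CPM in WT libraries. All 5 PS19 libraries, library 5 included, were above the 15 others, and the other 3 groups overlapped.

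The interaction of Cd74 was -1.23 (SE 0.35, unadjusted p = 0.00248). It rose by 1.85 in PS19 against WT (SE 0.25, adjusted p = 0.000239) and fell by 1.28 in PS19/C3aR KO against PS19 (SE 0.25, adjusted p = 0.0361). H2-Aa had an interaction of -0.998 (SE 0.37), H2-Ab1 of -1.05 (SE 0.37), and H2-Oa and H2-Ob, the subunits of the peptide-loading modulator H2-O, of -1.88 (SE 0.65) and -1.48 (SE 0.42). The class II transactivator Ciita stood at -0.27 (SE 0.29). Between 5 and 8 of the members had an unadjusted p below 0.05 over the 32 other settings. MHC class I genes gave a median of -0.22, with 12 of 15 below 0 and 1 at an unadjusted p below 0.05, a count that lay between 0 and 5 when single libraries were left out, highest without PS19 library 5.

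**Figure D4:**
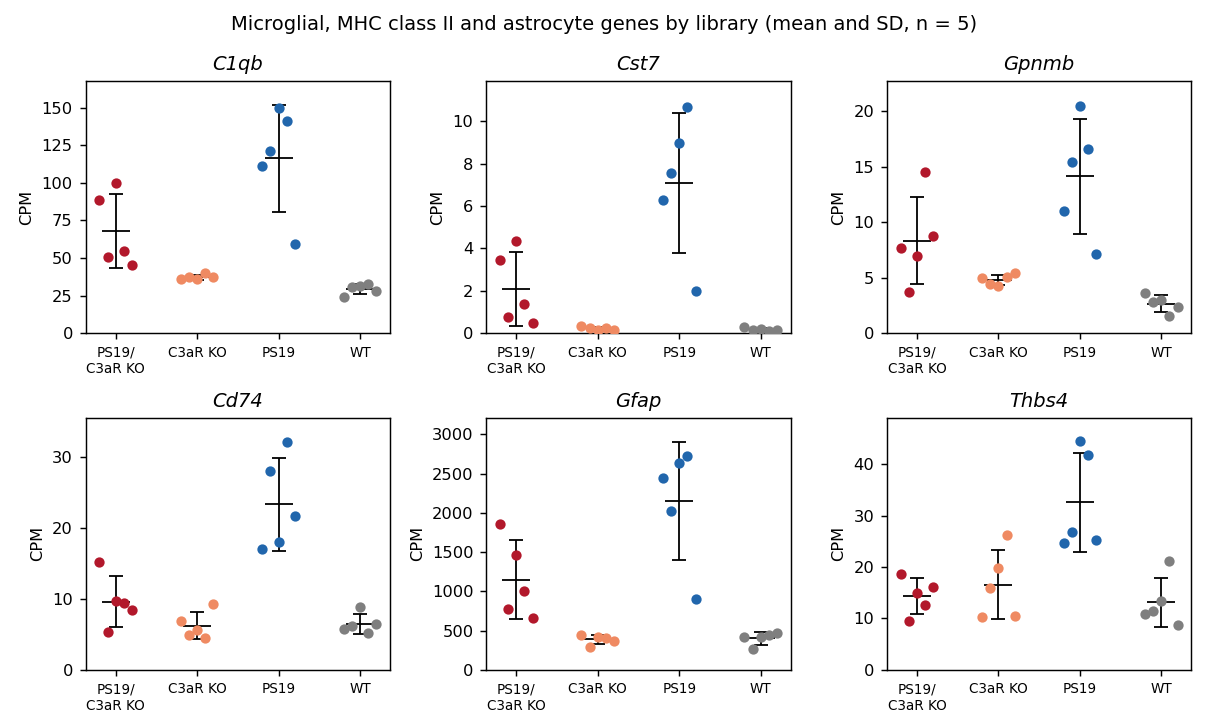
C1qb, Cst7, Gpnmb, Cd74, Gfap and Thbs4 in each of the 20 libraries, in CPM, with points for libraries and bars for the mean and SD of 5 libraries per group. Cd74 is at 17 CPM or more in the PS19 libraries and at 15.2 CPM or less in the 15 others, while C1qb and Gfap overlap between PS19/C3aR KO and PS19 through PS19 library 5.

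Cells of other kinds that could carry such genes were checked by their markers. Border-associated macrophage markers lay between 27.9 and 34.0 CPM in sum in PS19/C3aR KO, 24.9 and 37.7 in C3aR KO, 28.5 and 58.0 in PS19, and 27.6 and 38.4 in WT libraries, and 0 of 9 had an unadjusted p below 0.05. Their interaction was below 0 in 8 of 9, against 50.3% of all genes. The median was -0.17, with a median SE of a member's interaction of 0.387. Of 14 T and NK cell markers, 5 were abundant enough to test, and their sum lay between 3.34 and 4.22 CPM in PS19/C3aR KO, 2.88 and 3.85 in C3aR KO, 2.01 and 3.76 in PS19, and 2.24 and 3.06 in WT libraries. The part of either in the results was not tested.

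The astrocyte lists also had medians below 0. Of 13 pan-reactive astrocyte genes, 13 were below 0, with a median of -0.53 and median tau effects of 1.18 with the label and 1.73 without it, where 11 of 13 were called. A single one had an unadjusted p below 0.05, and 5 did without PS19 library 5, 3 without PS19/C3aR KO library 1, 2 without C3aR KO library 2 or WT library 5, and 0 in 14 of the other 16 such fits. With all libraries, 50.3% of all genes were below 0, 2.91% lower at an unadjusted p below 0.05 and 10.8% called in PS19 against WT. Gfap, the intermediate filament of astrocytes, averaged 1150 ± 503 CPM in PS19/C3aR KO, 387 ± 56.4 in C3aR KO, 2150 ± 749 in PS19 and 401 ± 80.8 in WT libraries (SD, n = 5 each). Its interaction was -0.84 (SE 0.39), and that of Vim, another intermediate filament, -0.56 (SE 0.38). For Aqp4, the water channel of astrocyte endfeet, it was -0.35 (SE 0.21).

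Of 18 general astrocyte genes, 16 were below 0, against 50.3% of all genes, with a median of -0.24. Among the 18, 5 had an unadjusted p below 0.05, where 2.91% of all genes were lower. The count of 5 was 9 without PS19 library 5, 2 without PS19 library 3, 3 without PS19/C3aR KO library 5 and 1 with the Rn45s share in the fit, where the list's median was -0.09. Rlbp1, a retinaldehyde-binding protein best known from the retina, had an interaction of -0.44 (SE 0.12).

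Thbs4, a thrombospondin of the extracellular matrix, had 18.6, 9.55, 14.9, 12.7 and 16.2 CPM in PS19/C3aR KO and 10.3, 15.9, 19.9, 26.2 and 10.4 CPM in C3aR KO libraries. It had 24.6, 26.8, 44.5, 41.8 and 25.2 CPM in PS19 and 10.9, 11.4, 13.4, 21.2 and 8.65 CPM in WT libraries. PS19 was the highest group, and C3aR KO library 4 alone reached into its range. The interaction of Thbs4 was -1.51 (SE 0.39, unadjusted p = 0.00107), with tau effects of -0.20 (SE 0.28, adjusted p = 0.909) with the label and 1.31 (SE 0.28, adjusted p = 0.00476) without it.

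A pattern of another kind stood on chromosome 12. Serpina3h, a serine protease inhibitor gene at chr12:104247896-104254405, had 0.359, 0.0960, 0.173, 1.30 and 0.190 CPM in PS19/C3aR KO and 5.41, 1.83, 3.01, 1.28 and 3.09 CPM in C3aR KO libraries. It had 8.55, 2.54, 6.09, 3.98 and 1.76 CPM in PS19 and 4.32, 0.780, 1.93, 2.74 and 4.03 CPM in WT libraries. PS19/C3aR KO was the lowest group, with library 4 alone reaching into the range of the others, while C3aR KO, PS19 and WT overlapped.

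The interaction of Serpina3h was -3.45 (SE 0.84, unadjusted p = 0.000574), and it fell by 3.37 in PS19/C3aR KO against PS19 (SE 0.64, adjusted p = 0.0322). Serpina3m, a neighbour at chr12:104387157-104394259, had -3.64 (SE 0.97) and fell by 3.53 in the same comparison (SE 0.73, adjusted p = 0.0461). Without PS19/C3aR KO library 4 the interaction of Serpina3m was -7.12, with an adjusted p of 0.00187, and its size depends on the prior count since 2 of the libraries left were at 0. Serpina3n, the most abundant of the family and a marker of reactive astrocytes, had -0.90 (SE 0.48, unadjusted p = 0.0735), named after its values were seen. These genes are related members of a cluster, and any reads shared among them would make each level uncertain.

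Of the 20 genes with the lowest p, 2 had a higher value, both at low abundance. Moap1, a modulator of apoptosis at chr12:102739830-102743661, had an interaction of 1.99 (SE 0.47), with 0.309 ± 0.0520 CPM in PS19/C3aR KO, 0.149 ± 0.0484 in C3aR KO, 0.123 ± 0.0811 in PS19 and 0.240 ± 0.0628 in WT libraries (SD, n = 5 each). Vmn2r85, a vomeronasal receptor gene, had 1.16 (SE 0.29) at a group mean of 0.483 CPM in PS19/C3aR KO, 0.330 in C3aR KO, 0.289 in PS19 and 0.442 in WT libraries.

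The remaining genes among the 20 were lower. They were Yap1, the coactivator of the Hippo pathway, at -0.31 (SE 0.08), the phospholipase gene Pnpla7 at -0.58 (SE 0.14), the glucuronosyltransferase gene Ugt1a7c at -1.48 (SE 0.38), the zinc transporter Slc30a7 at -0.26 (SE 0.07) and Mst1r, the receptor of macrophage-stimulating protein, at -0.71 (SE 0.20). Ugt1a7c, whose exons overlap those of other Ugt1a genes, was also lower in PS19/C3aR KO than in PS19, by 1.35 (SE 0.26, adjusted p = 0.0363). It too was at low abundance, averaging 0.266 CPM in PS19/C3aR KO, 0.298 in C3aR KO, 0.683 in PS19 and 0.273 in WT libraries.

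The genes tied to the transgene are Prnp and Mapt. Prnp, whose promoter and non-coding sequence the transgene uses, had 1920, 2030, 1830, 1880 and 1830 CPM in PS19/C3aR KO and 842, 825, 851, 871 and 869 CPM in C3aR KO libraries. It had 1920, 1900, 1840, 1890 and 1880 CPM in PS19 and 853, 825, 917, 949 and 896 CPM in WT libraries. All 10 transgenic libraries were above the 10 others, and the 2 transgenic groups overlapped.

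The tau effect on Prnp was 1.15 (SE 0.04, adjusted p = 2.75e-12) with the label and 1.09 (SE 0.04, adjusted p = 8.42e-12) without it, and the interaction was 0.07 (SE 0.06, unadjusted p = 0.272). Mapt, the mouse tau gene, averaged 610 ± 29.3 CPM in PS19/C3aR KO, 559 ± 19.3 in C3aR KO, 618 ± 21 in PS19 and 525 ± 27.8 in WT libraries (SD, n = 5 each). Its tau effect was 0.13 (SE 0.04, adjusted p = 0.303) with the label and 0.23 (SE 0.04, adjusted p = 0.00193) without it, and the interaction was -0.11 (SE 0.06, unadjusted p = 0.0952). How many reads of the human transgene aligned to mouse Mapt is not known from the counts.

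Neuronal lists had medians near 0. Of 30 synapse genes, 6 were below 0 and none had an unadjusted p below 0.05 with edgeR, with a median of 0.06 and median tau effects of -0.10 with the label and -0.16 without it, and DESeq2 and limma-voom called none. The median turned to -0.02 with the Rn45s share in the fit. Dentate granule neuron genes had a median of 0.09, CA1 pyramidal genes of 0.06, CA3 pyramidal genes of 0.02 and inhibitory neuron genes of -0.03. The median SE of a member's interaction in these lists lay between 0.197 and 0.295. An SE of a single member does not measure the spread of a list's median. Below 0 were 2 of 16 dentate granule, 5 of 12 CA1, 6 of 13 CA3 and 15 of 21 inhibitory neuron genes. Of all genes, 50.3% were below 0.

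The lists of oligodendrocyte genes had medians below 0. Of 21 genes of mature oligodendrocytes and myelin, 20 were below 0 with a median of -0.18, and in 7 all 5 PS19 libraries were above the 15 others. An unadjusted p below 0.05 was reached by 2 of them, and by 1 when any of C3aR KO libraries 1 and 4, PS19 library 4, PS19/C3aR KO libraries 2 to 5 or WT libraries 2 to 4 was left out. Of all genes, 50.3% were below 0 and 2.91% were lower at an unadjusted p below 0.05. All 5 PS19 libraries were above the 15 others in 0.576% of all genes. Cryab, a small heat shock protein of oligodendrocytes named after its values were seen, averaged 72.2 ± 10.6 CPM in PS19/C3aR KO, 63.0 ± 5.62 in C3aR KO, 111 ± 13.2 in PS19 and 65.3 ± 11.5 in WT libraries (SD, n = 5 each). Its interaction was -0.57 (SE 0.17), and it fell in PS19/C3aR KO against PS19 by 0.62 (SE 0.12, adjusted p = 0.0322). The 14 genes of disease-associated oligodendrocytes were below 0 in 14 of 14, with a median of -0.55. Among them 4 had an unadjusted p below 0.05, but 9 without PS19 library 5, 7 without PS19/C3aR KO library 1, and 2 without PS19/C3aR KO library 2 or 5. Of 24 cholesterol synthesis genes 5 were below 0, with a median of 0.11.

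**Figure D5:**
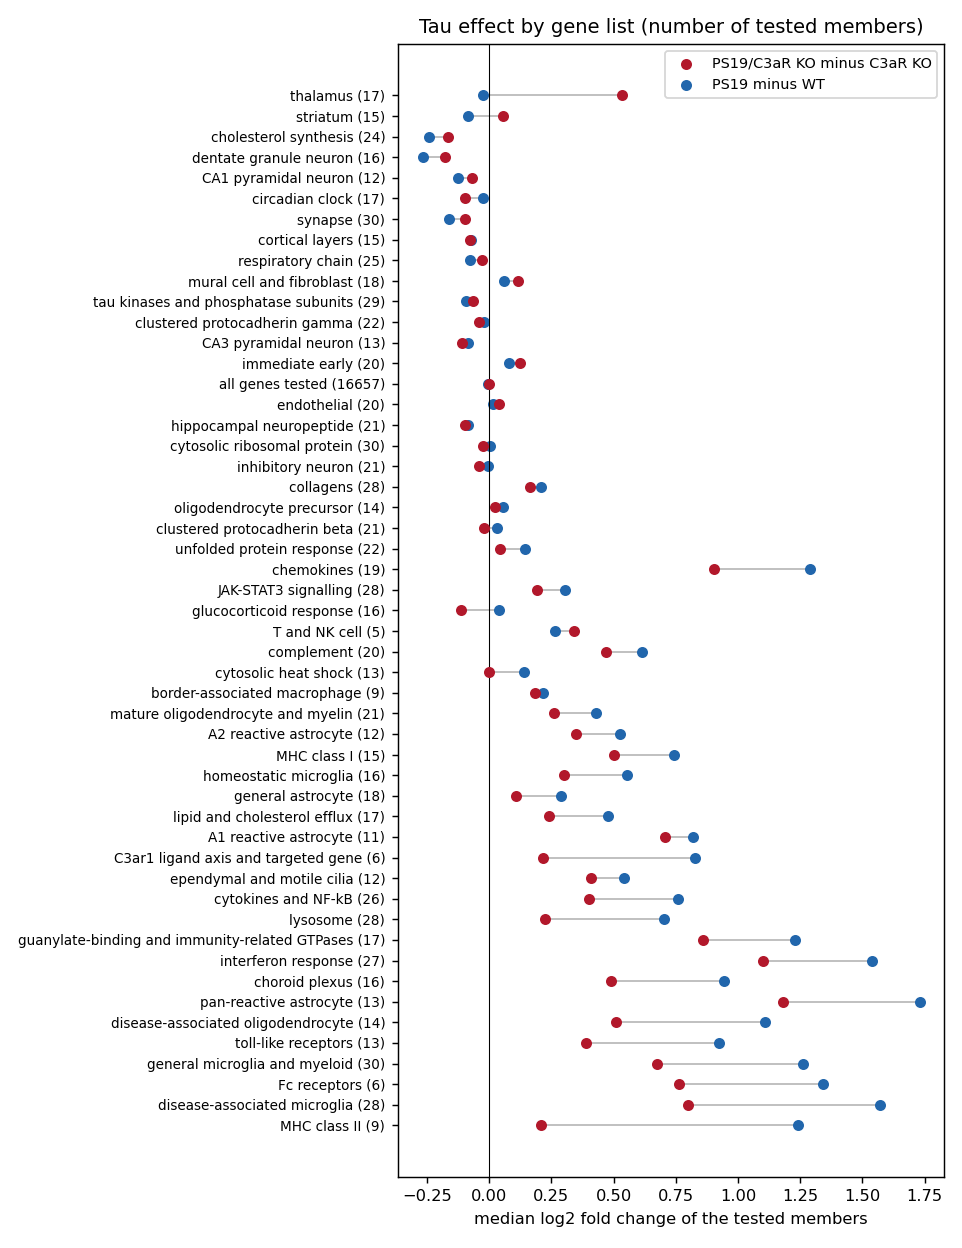
Median tau effect of the tested members of each gene list, as a log2 fold change, for PS19/C3aR KO minus C3aR KO (red) and PS19 minus WT (blue), with the number of members in brackets and lists ordered by their median interaction. MHC class II stands at 0.21 and 1.24, disease-associated microglia at 0.80 and 1.57 and lysosome at 0.22 and 0.70, while thalamus is at 0.53 and -0.02.

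Markers of tissue next to the hippocampus varied between libraries of every group. Choroid plexus genes lay between 197 and 6610 CPM in sum in PS19/C3aR KO, 166 and 5050 in C3aR KO, 308 and 6290 in PS19, and 183 and 3200 in WT libraries. Their median interaction was -0.49 with 16 of 16 below 0, but the median SE of a member was 1.68 and the median turned to 0.31 without C3aR KO library 4. The 17 thalamus genes had 0 below 0 and a median of 0.49, with 1 higher at an unadjusted p below 0.05. Their sum lay between 513 and 1200 CPM in PS19/C3aR KO, 529 and 620 in C3aR KO, 611 and 857 in PS19, and 563 and 841 in WT libraries. With the choroid plexus score or the thalamus score in the fit, C3ar1 and Gbp2b were again the only genes called.

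Which group stood apart was read from the group means of log2 CPM, as the group whose mean lay farthest from the other 3. Among the 691 genes with an unadjusted p below 0.05 this was PS19/C3aR KO for 39 (5.64%), C3aR KO for 38 (5.50%), PS19 for 478 (69.2%) and WT for 136 (19.7%). Among all 16657 genes it was PS19/C3aR KO for 15%, C3aR KO for 17.8%, PS19 for 44.1% and WT for 23.1%. Man2b2, Hexa, Ctsd, Cd74 and Thbs4 belong to the genes with PS19 apart, C3ar1, Gbp2b, Gpnmb and Dpp7 to those with WT apart, and Serpina3h, Serpina3m and Moap1 to those with PS19/C3aR KO apart. These shares use the values that gave the p, so they are a description.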

How the data were processed

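Groups and replicate numbers came from the sample titles. Per the labels' protocols, an RNeasy Mini kit gave the RNA, an Illumina HiSeq gave 76-nt paired reads, TopHat 2.0.9 placed them on mm10, and htseq-count summed them over all exons of a gene. The deposited values are those raw counts, not normalized by the authors, for 24513 genes. The submitters' processing notes also name DESeq2 but give it no role. Which annotation release and strand setting were used is not stated in them, so a gene and its antisense neighbour may share reads. The 5 summary lines that end each file entered neither library sizes nor tests. Read pairs on no annotated exon were 17.4 to 25.4% and pairs on more than 1 gene 1.39 to 1.64%.

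The quasi-likelihood model of edgeR 4.0.16 (R 4.3.3) was fitted once to all 20 libraries with genotype as the only factor, TMM normalization and genes kept by filterByExpr (minimum count 10, minimum total 15), which left 16657 genes. A gene was called at an adjusted p below 0.05 (Benjamini-Hochberg, over all genes of a comparison), and this test gave every adjusted p above unless DESeq2 1.42.0 or limma-voom (limma 3.58.1) is named. CPM are scaled to TMM library sizes. List scores are mean log2 CPM with a prior count of 2, relative to WT. Gene lists (51 lists, 875 symbols, 872 in the files, 838 tested) are described by counts and medians, with no set test. The members and lists were chosen with earlier results of these data known. Named genes were C3ar1, Mapt and Prnp, then, since fewer than 20 genes were called, the 20 with the lowest p, and the first 2 tested members of a list with none called. Other genes are the extremes or exceptions of a list, or are said to be chosen after their values were seen or, for Lamp1, for its promoter. The scripts were tested on simulated data. Libraries of a group differed by more than counting noise in every pair, so none was counted as a duplicate. Alternatives were other size factors, DESeq2, limma-voom, a robust fit, filters, covariates, a replicate block and leaving out each library. Positions and promoter windows are RefSeq on GRCm38.p6. Poisson intervals are at 95%.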

Additional observations from a re-analysis of the deposited data

Results flagged for a closer look

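The tau effects of C3ar1 and Gbp2b differed with the C3aR KO label by the test of the difference itself, with interactions of -2.218 and -6.162 on the log2 scale. For both genes WT was the group that stood apart, and C3ar1 was higher in the libraries labelled C3aR KO than in WT. The part of breeding, which the labels do not give, was not tested.

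Within groups of 5 libraries, 15 of 240 groups of values checked held a library far from the other 4, where chance gives about 1 in 20. The groups were the 4 genotypes for 51 genes and 9 list scores. PS19 library 5 was low for C1qa, at 66.5 CPM, and Trem2, at 13.8 CPM, and in its scores of general microglial and myeloid genes, 0.402, and pan-reactive astrocyte genes, 0.473. PS19/C3aR KO library 4 was high for Serpina3h, at 1.30 CPM, and Serpina3m, at 0.763 CPM. PS19/C3aR KO library 2 was high for Dpp7, at 29 CPM, and Vmn2r85, at 0.600 CPM. PS19/C3aR KO library 1 was high in its MHC class II score, 0.800. C3aR KO library 3 was high for Aif1, at 5.43 CPM, and Mst1r, at 5.27 CPM. PS19 library 3 was high for Moap1, at 0.264 CPM. WT library 5 was high for Hexa, at 54.1 CPM, WT library 2 low for Gfap, at 261 CPM, and WT library 4 low in its score of disease-associated microglia, -0.135.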

How the results depend on the processing

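Over 32 alternatives, 20 of them leaving out 1 library each and 1 chosen after seeing the data (the thalamus score as a covariate), C3ar1 was called in 32 and Gbp2b in 31. The number of interaction calls was 1 with limma-voom and 2 to 5 when single libraries were left out. It was 5 without PS19 library 5, where Ftl1, Hexa and Man2b2 were added, and 3 without PS19/C3aR KO library 4, where Serpina3m was added. For PS19/C3aR KO minus C3aR KO the count of 1 was 158 with DESeq2 and 1 to 105 over the left-out libraries. For PS19 minus WT the count of 1803 was 1190 to 2240 over them, and 431 once the Rn45s share entered the fit. Signs turned for C3 (interaction -0.44 to 0.24 over the left-out libraries), Ifit1 (-1.08 to 0.16), Ifit2 (-0.24 to 0.000569) and, with the Rn45s share, P2ry12 (0.0248). The cause was not tested.

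The replicate numbers in the titles are not stated to pair the libraries, and deviations of same-numbered libraries correlated between -0.273 and 0.55, over 0.1 in 16 of 30 pairs, so the numbers were not taken to pair them. With a replicate block the interaction called 2 genes, PS19/C3aR KO minus C3aR KO 22 and PS19 minus WT 2105. Of the 20 libraries, 6 correlated best with their own number.

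With 5 libraries a group, the SE of an interaction was 0.14 for the median gene and 1.68 for the median choroid plexus gene, which limits what size of difference can be called. Counts cover exons of annotated genes, not isoforms, and no protein was measured.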

Other observations

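Some lists outside glia and lysosomes are given here, beside the 2.91% of all genes that were lower and 1.24% that were higher at an unadjusted p below 0.05. Of 25 respiratory chain genes, 7 had an interaction below 0, with a median of 0.05. Of 29 tau kinases and phosphatase subunits, 7 were below 0, with a median of 0.03, and none had an unadjusted p below 0.05 with edgeR, while DESeq2 and limma-voom called none. Cytosolic heat shock genes were below 0 in 13 of 13 with a median of -0.17, 1 of them at an unadjusted p below 0.05. That count was 6 when WT library 5 was left out and 2 when C3aR KO library 2, PS19 library 1 or 5, or PS19/C3aR KO library 1 or 4 was left out, or with DESeq2. Of 16 glucocorticoid response genes, 11 were below 0 with a median of -0.12 and 2 at an unadjusted p below 0.05, which became 6 when WT library 5 was left out. Of 22 genes of the clustered protocadherin gamma family, whose shared exons make their counts uncertain, 3 were lower and 1 higher at an unadjusted p below 0.05, and 1 was lower with the Rn45s share in the fit. Of 13 toll-like receptor genes, 12 were below 0 with a median of -0.57 and 2 at an unadjusted p below 0.05. That count was 8 when PS19 library 5 was left out, 4 for PS19/C3aR KO library 3, 1 for C3aR KO library 5, PS19 library 3, PS19/C3aR KO library 5, WT library 4 or WT library 5, and 0 for PS19 library 4. It was 1 with limma-voom or with the replicate number as a block, and 0 with the Rn45s share in the fit. Of 20 endothelial genes 11 were below 0, with a median of -0.01 that turned above 0 in other settings.

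Gusb, the lysosomal beta-glucuronidase, Selplg, a microglial selectin ligand, and Il33, an alarmin cytokine of glia, were chosen after their values were seen, among the genes that passed in PS19/C3aR KO against PS19. Gusb averaged 16.3 ± 2.43 CPM in PS19/C3aR KO, 12.7 ± 0.716 in C3aR KO, 24.3 ± 3.62 in PS19 and 14.2 ± 0.762 in WT libraries (SD, n = 5 each), and its interaction was -0.42 (SE 0.14). Selplg averaged 27.3 ± 2.15 CPM in PS19/C3aR KO, 26.2 ± 1.46 in C3aR KO, 39.5 ± 7.65 in PS19 and 27.5 ± 2.58 in WT libraries, with an interaction of -0.47 (SE 0.15). Il33 had an interaction of -0.34 (SE 0.17), with 44.8 ± 2.54 CPM in PS19/C3aR KO, 39.6 ± 7.27 in C3aR KO, 69.6 ± 10.9 in PS19 and 48.8 ± 6.91 in WT libraries.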
